A study of Bos taurus with 2 samples.

Results

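The folate enzymes described here are 9 genes of folate-linked one-carbon metabolism, measured by 19 of the 43652 probes used on each array. They comprise 5 genes whose enzymes work in mitochondria (MTHFD2, MTHFD2L, MTHFD1L, SHMT2 and ALDH1L2) and 4 whose enzymes work mainly in the cytosol (MTHFD1, SHMT1, ALDH1L1 and TYMS). Probes were assigned through the RefSeq record given with each probe. The genes were chosen by their role together with the measured log2 LN/HN of these same arrays, so their values are a description and carry no test.

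The samples were longissimus thoracis (LT) muscle of Japanese Black cattle fetuses at 8.5 months of gestation (day 260 ± 8.3). Dams received 120% of the nutritional requirement in the high-nutrition (HN) group and 60% in the low-nutrition (LN) group, before and throughout pregnancy. Each group was measured on 1 one-colour Agilent Bovine (v2) array carrying the pooled RNA of 4 fetuses, the heaviest by body weight (BW) of the HN group and the lightest of the LN group. Diet and selection by BW therefore cannot be told apart. With 1 array per group the arrays hold no replicate check, they do not show the spread between fetuses, and no p-value is given. The errors below are those the scanner software estimated for each spot and cover the array measurement only.

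Folate carries single carbon units for the synthesis of purines, thymidylate and methionine. In mitochondria, SHMT2 takes a carbon from serine and makes glycine, MTHFD2 or MTHFD2L oxidises the carbon carried by folate, and MTHFD1L releases it as formate, which leaves for the cytosol. There MTHFD1 attaches formate to folate again and SHMT1 and TYMS use the cytosolic pool, whereas ALDH1L1 and ALDH1L2 oxidise the carbon to carbon dioxide and form NADPH in their own compartments. In many adult tissues MTHFD2 is scarce and it is abundant in embryonic and dividing cells.

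MTHFD2 and ALDH1L2 had the largest differences of the 9 genes, and primers for quantitative PCR of both are listed by the study, whose PCR measurements are not analysed here. These primers are printed because they define the transcripts assayed, which are the RefSeq records of the array probes. The capitals mark the last 5 bases at the priming end, and each primer is 24 bases long, with a GC content of 41.7% except for the ALDH1L2 reverse primer (45.8%).
MTHFD2 forward: atcccataactgctaaaccCAAGT
MTHFD2 reverse: gtattcttcatcagcattgCCACA
ALDH1L2 forward: aagggggtaatcaacatcaTTCCA
ALDH1L2 reverse: caatcagagtggaaccagtGAAAC

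The signal ranges of both arrays were alike. The share of spots well above background was 74.5% in HN and 70.9% in LN, the median signal was 49.1 and 48.4, and no spot was saturated. After quantile normalization the median log2 LN/HN over all 19554 genes with a value was -0.0033. Repeated spots of a probe differed with an SD of 0.086 (log2 LN/HN, 42 probes), and different probes of a gene with a median SD of 0.099 (7139 genes). Skeletal muscle markers were bright in both pools, with 12 of 13 matched and log2 levels of 11.1 to 18.4.

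Of the 9 folate enzymes, 4 were at least 25% higher in the LN pool (log2 LN/HN of 0.32 or more), as were 8.85% of all genes. None was at least 20% lower, which is the same distance on the log2 scale (-0.32), while 9.11% of all genes were. These distances are the threshold used below for higher and lower. The 4 were MTHFD2, ALDH1L2 and MTHFD2L of the mitochondrial set and SHMT1 of the cytosolic set. MTHFD2 and ALDH1L2 were also past 2-fold higher, against 0.711% of all genes, and no member was past 2-fold lower, against 0.286%. The median log2 LN/HN was 0.59 over the 5 mitochondrial enzymes and 0.02 over the 4 cytosolic enzymes. These medians differed by 0.57. Under the normexp background correction only MTHFD2 was past the threshold, the mitochondrial median was 0.17 and the medians differed by 0.14. The mitochondrial median is the value of MTHFD2L, with MTHFD2 and ALDH1L2 above it and MTHFD1L and SHMT2 short of the threshold.

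**Figure D1:**
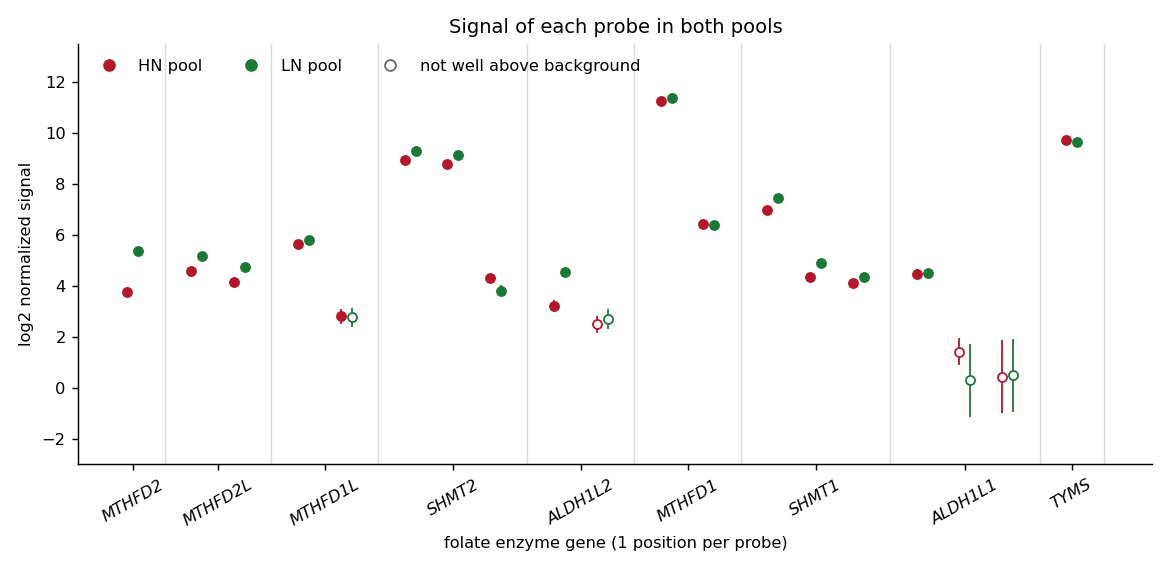
Normalized log2 signal of each of the 19 folate enzyme probes in the HN pool (red) and the LN pool (green), with bars for the error estimate of the scanner software and open circles for probes not well above background. The separation between pools is widest for MTHFD2 and for the measured ALDH1L2 probe, while the TYMS and MTHFD1 points nearly coincide.

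Among the 19 probes, 15 were well above background on both arrays, 1 was so on 1 array and 3 were so on neither. Of the 15 measured probes, 12 were higher and 3 lower in LN by any amount, where the median log2 LN/HN over all genes was -0.0033. Past the threshold, 8.59% of all probes well above background on both arrays were higher and 8.31% lower. The 8 measured mitochondrial probes included 6 that were higher past the threshold and 1, an SHMT2 probe, that was lower past it. The 7 measured cytosolic probes included 2 that were higher past the threshold and none that was lower past it.

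MTHFD2 encodes the mitochondrial dehydrogenase and cyclohydrolase that uses NAD, and had 1 probe. Its normalized log2 signal was 3.77 in HN and 5.37 in LN. The LN pool was thus 3.03-fold higher (log2 LN/HN 1.60 ± 0.24, software error), which ranked 16th from the highest of 19554 genes. The probe was dim: its median pixel signal was 44 over a local background of 24 in HN and 70 over 26 in LN. Of the 3538 probes whose mean signal lay within 0.5 log2 units of it, 0.622% were past 2-fold higher and 0.113% were higher by as much or more.

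MTHFD2L, the paralogue that carries out the same reactions in mitochondria, had 2 measured probes. Their log2 signals were 4.59 and 4.14 in HN and 5.17 and 4.75 in LN. Both probes were higher in LN by similar amounts, 0.58 and 0.61, and their mean was 0.59 ± 0.16 (1.51-fold). This was less than for MTHFD2 by 1.00 ± 0.29, a gap that was 0.23 under normexp and 0.65 under local background subtraction. Among probes of like signal, 3.65% and 3.57% were higher by as much or more.

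ALDH1L2, the mitochondrial formyl-tetrahydrofolate dehydrogenase, had 1 measured probe of 2. Its log2 signal was 3.20 in HN and 4.56 in LN, a difference of 1.36 ± 0.29 (2.56-fold) that ranked 40th of the 19554 genes. This probe too was close to background, with 40 over 22.5 in HN and 51 over 23 in LN before processing. Local background subtracted from these values left a log2 LN/HN of 0.68, and the same step left 1.14 for MTHFD2. The second ALDH1L2 probe was not well above background in either pool and had nearly the same processed signal in both, 6.07 and 6.09. The value of the gene therefore rests on 1 dim probe, and 1.21% of the 3459 probes of like signal were past 2-fold higher.

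SHMT2, the mitochondrial serine hydroxymethyltransferase, had 3 measured probes that did not all differ in the same direction. The brightest had a log2 signal of 8.94 in HN and 9.29 in LN, and the next had 8.80 and 9.13. These 2 were higher in LN by 0.35 and 0.33, or 1.27-fold and 1.26-fold, both past the threshold, and 3.02% and 3.47% of the probes of like signal were higher by as much or more. The third, a dim probe, read 4.30 in HN and 3.82 in LN and was lower by 0.48. The mean over the 3 probes was 0.07 ± 0.13, short of the threshold, whereas the brightest probe alone put SHMT2 past it.

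MTHFD1L, the mitochondrial formate-releasing synthetase, had a log2 signal of 5.63 in HN and 5.81 in LN on its brighter probe. The difference of 0.17 ± 0.21 was smaller than the software error. The dimmer probe was well above background in HN only, with 2.80 there and 2.77 in LN, and gave no fold.

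**Figure D2:**
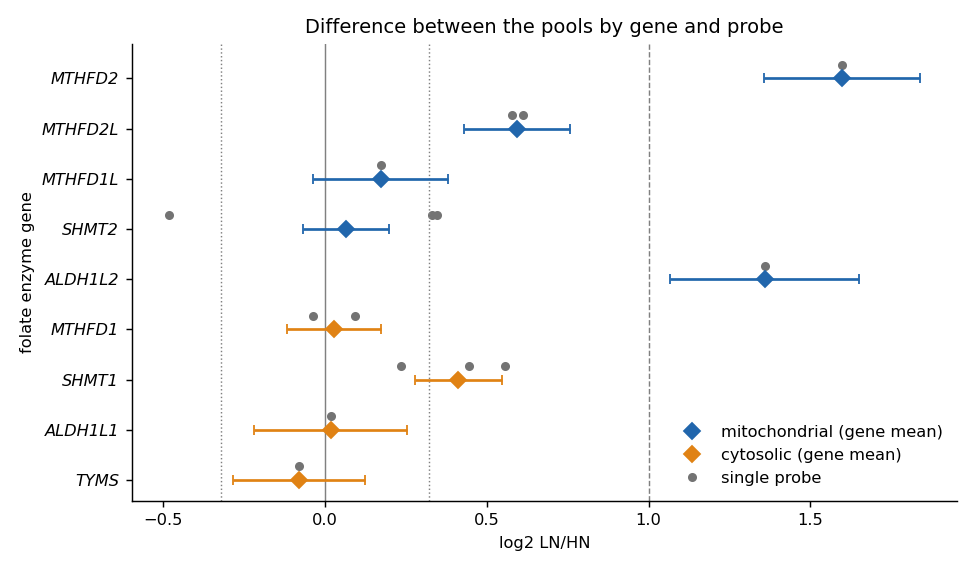
Log2 LN/HN of the 9 folate enzymes, with diamonds for gene means (blue mitochondrial, orange cytosolic), bars for the software error and grey dots for single probes. Dotted lines mark the threshold of 0.32 in either direction and the dashed line 2-fold, past which only MTHFD2 and ALDH1L2 lie, and the 3 SHMT2 probes fall on both sides of 0.

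Among the cytosolic enzymes only SHMT1 was past the threshold. SHMT1, the cytosolic serine hydroxymethyltransferase, had 3 probes with log2 signals of 7.00, 4.34 and 4.10 in HN and 7.44, 4.89 and 4.34 in LN. All 3 were higher in LN, by 0.45, 0.56 and 0.24, and the mean was 0.41 ± 0.13 (1.33-fold). Among probes of like signal, 2.42%, 4.37% and 23.8% were higher by as much or more, in the same order of probes.

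MTHFD1, the cytosolic enzyme with synthetase, cyclohydrolase and dehydrogenase activities, had log2 signals of 11.28 and 6.43 in HN and 11.37 and 6.40 in LN. Its probes differed by 0.09 and -0.04, and the mean of 0.03 ± 0.14 was within the software error. TYMS, which makes thymidylate for DNA synthesis, read 9.74 in HN and 9.66 in LN, a difference of -0.08 ± 0.20. It was the only member with a gene value below 0.

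ALDH1L1, the cytosolic counterpart of ALDH1L2, had 1 measured probe of 3, with log2 signals of 4.49 in HN and 4.50 in LN. The difference was 0.02 ± 0.24. Its other 2 probes were not well above background in either pool.

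Comparison of ratios within paralogue pairs gave no single pattern by compartment. ALDH1L2 exceeded ALDH1L1 by 1.34 ± 0.38, and this difference was above 0 in all 13 alternative settings (0.16 to 1.54), 5 of which left it as it was. MTHFD1L exceeded MTHFD1 by 0.14 ± 0.25, less than the error, and the sign of this difference turned in some settings (-0.06 to 0.14, above 0 in 10 of 13). For serine hydroxymethyltransferase the order was the opposite, with a difference of SHMT2 from SHMT1 of -0.35 ± 0.19. It shrank to -0.10 with the brightest probe of each gene and to -0.11 with the median over probes. The lowest and highest values over the 13 settings were -0.37 and -0.03.

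**Figure D3:**
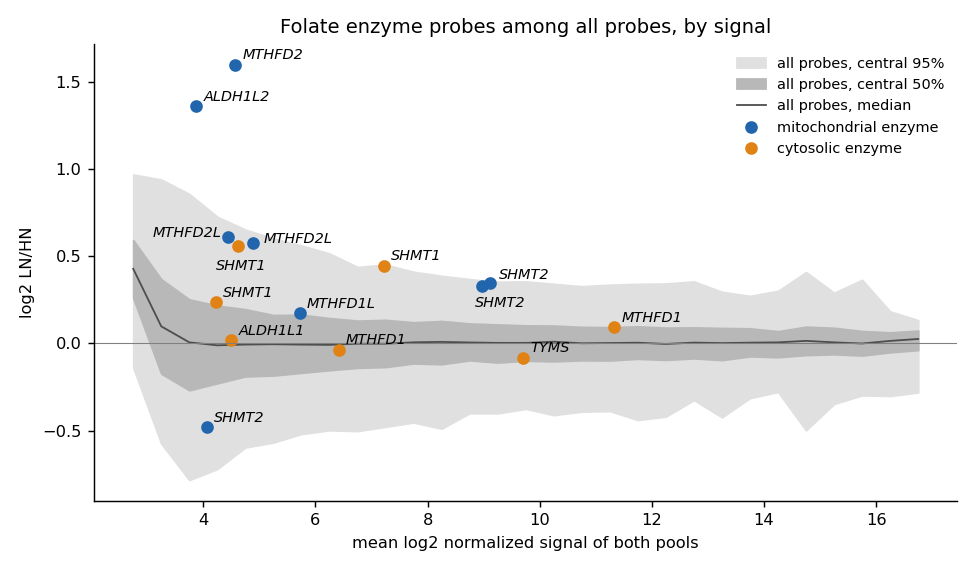
Log2 LN/HN against the mean log2 normalized signal of both pools for the 15 measured folate enzyme probes (blue mitochondrial, orange cytosolic), over bands that hold the central 50% and 95% of all probes in bins of signal. MTHFD2 and ALDH1L2 lie above the wider band at the dim end, where the band is broadest, and the probes of the other members lie inside it.

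The spread of ratios over all probes widened towards low signals, as the plot of ratios by signal shows. Of the 8 measured member probes with a log2 level under 5 in HN, 5 were higher past the threshold, where 22.4% of all measured probes of such levels were. Of the 7 at or above that level, 3 were, against 4.7% of all. The brighter 3 were 2 SHMT2 probes and 1 SHMT1 probe.

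The surrounding pathway was described with gene lists written from general knowledge, with earlier results of these data known. The list values are therefore a description. Past the threshold, 8.85% of all genes were higher and 9.11% lower. The 18 measured genes of the rest of the folate cycle had a median log2 LN/HN of -0.0026. Those past the threshold included GGH, which trims the glutamate tail of folates and was higher (0.39), and SARDH, the mitochondrial sarcosine dehydrogenase, which was lower (-0.44). GLDC, FOLR1 and DMGDH were not detected.

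Serine is the main carbon donor to the folate cycle. The list of genes for its supply and use had a median of 0.64, or 0.45 under normexp. Of its 9 measured genes, 6 were higher past the threshold and none lower. PSPH (1.53), PHGDH (1.49) and PSAT1 (1.16), which make serine from a glycolytic intermediate, were past 2-fold, as was CBS, which joins serine to homocysteine (1.31). The methionine cycle, which takes methyl groups from folate, had a median of 0.19, or 0.08 under normexp. Of its 11 measured genes, 2 were higher past the threshold and none lower. They were GNMT, which methylates glycine (0.95), and MAT2A, which makes S-adenosylmethionine (0.43).

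The lists for products of the folate cycle lay near 0. Purine synthesis had 1 of 13 genes higher past the threshold (ADSS2, 0.37), none lower and a median of 0.0031. The 11 measured genes of thymidylate and deoxynucleotide supply had a median of 0.042, and none was lower past the threshold.

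**Figure D4:**
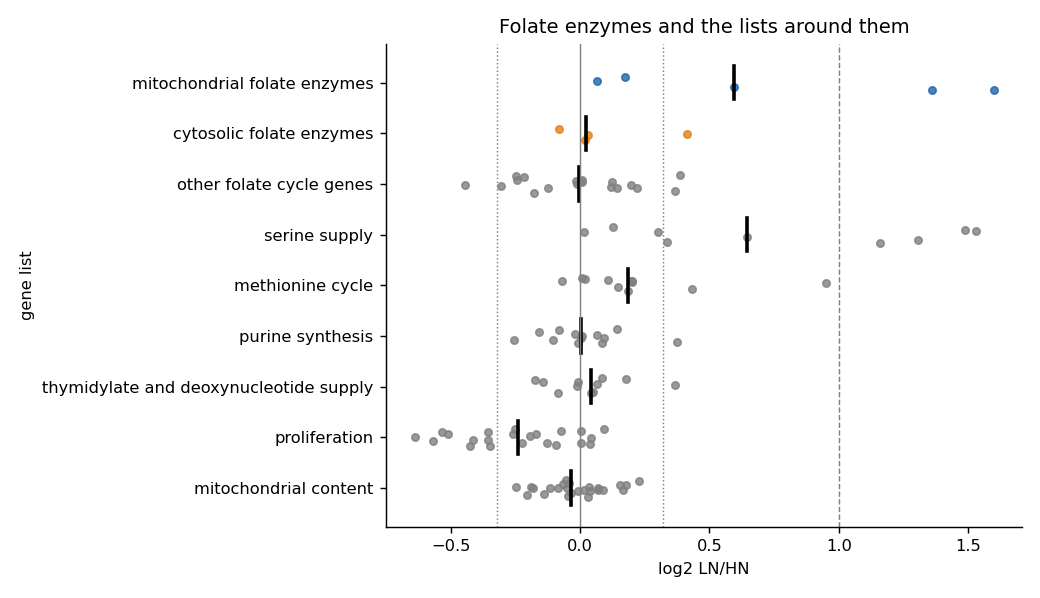
Log2 LN/HN of each measured gene (dots) and the median (black bar) in the mitochondrial and cytosolic folate enzymes and in 7 surrounding lists, with dotted lines at 0.32 in either direction and a dashed line at 2-fold. The mitochondrial folate enzymes (median 0.59) and the serine list (0.64) lie to the right, proliferation (-0.24) lies to the left, and the other lists centre between -0.033 and 0.19.

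Other gene groups differed between the pools beside the folate enzymes. Of 22 measured proliferation genes, 9 were lower in LN past the threshold and none higher, against 9.11% and 8.85% of all genes. The median was -0.24, or -0.10 under normexp. CDC20 (-0.64), CCNB1 (-0.53), BIRC5 (-0.51) and CDK1 (-0.41), which act in mitosis, were among the lower genes. Their log2 levels in HN were only 4.41 to 5.84, and ratios over all probes spread widely at low signals. The summed normalized signal of the 22 genes was 11013 in HN and 10799 in LN. The 25 measured genes of mitochondrial content, for respiratory chain, matrix, import and membrane proteins, all lay within the threshold (-0.25 to 0.23, median -0.033). In bulk RNA, fewer cells of a type and less RNA per cell cannot be told apart.

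Of the 12 skeletal muscle markers, 1 was higher past the threshold and 1 lower (-0.50 to 0.35, median -0.088). Markers of other cell types also differed, where 8.85% of all genes were higher and 9.11% lower past the threshold. Of 6 neutrophil markers, 5 were higher in LN past the threshold, and their summed normalized signal was 1470 in HN and 2502 in LN. The probe of MPO, which was higher, was not well above background in HN. Of 6 fibroblast markers, 4 were higher, with sums of 350887 and 446195. Of 7 measured liver markers, 3 were lower, with sums of 6494 and 5060. They included ALB and AHSG, some of whose probes were well above background on 1 array only. Of 5 macrophage markers, 2 were lower, with sums of 7851 and 6357. None of the 5 endothelial or the 4 astrocyte markers was past it, nor was any of the 4 measured erythroid markers, and 1 of 3 measured adipocyte markers was higher. The erythroid marker SLC4A1 and the adipocyte marker LEP were not detected. The part of these cell types in the folate enzyme values was not tested.

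Of the 13 alternative settings, 7 could not alter MTHFD2, which has 1 probe well above background on both arrays. The other 6 gave values of 0.40 to 1.66, all past the threshold. For ALDH1L2, 8 settings altered the value, to between 0.20 and 1.55, and its lowest value came from the normexp background correction, which adds an offset of 50 to every signal.

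**Figure D5:**
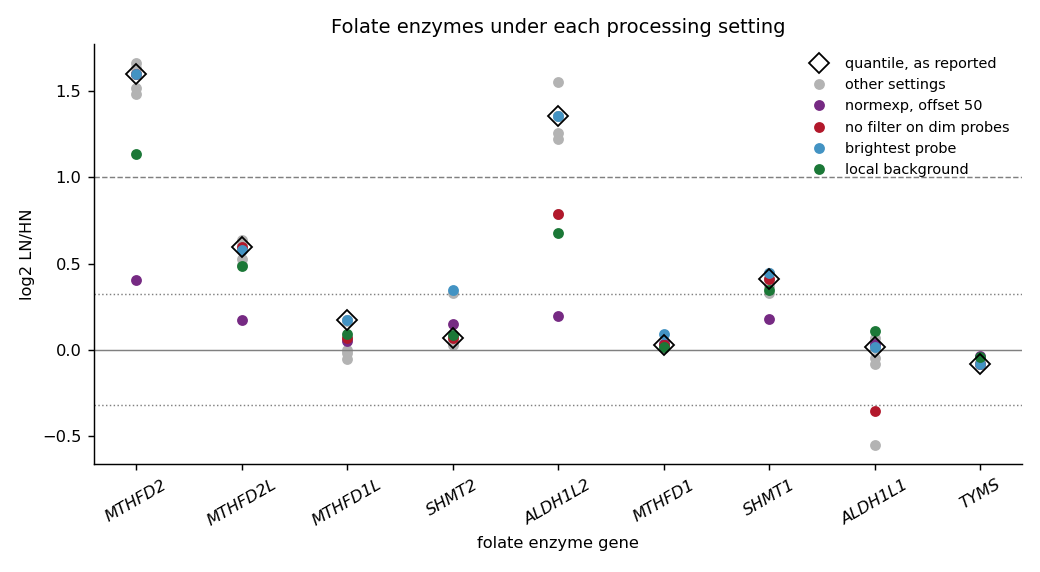
Log2 LN/HN of each folate enzyme as reported (open diamonds) and under the 13 alternative processing settings (dots), with dotted lines at 0.32 in either direction and a dashed line at 2-fold. MTHFD2 (0.40 to 1.66) and ALDH1L2 (0.20 to 1.55) spread the most, whereas MTHFD1 and TYMS stayed near 0.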

How the data were processed

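The authors extracted spot signals with Agilent Feature Extraction 11.0.1.1 (version from the submitters' processing notes) and deposited background-corrected intensities with no normalization between arrays. The authors also deposited a table of quantile-normalized values for 30027 probes, which is on the log2 scale as judged from its values. Here, log2 intensities of 43803 non-control spots were quantile-normalized with limma 3.58.1 in R 4.3.3, and tabulated with Python 3.11.15, numpy 2.4.6 and pandas 2.3.3. Figures were drawn with matplotlib 3.10.9. Outlier spots were removed (1 probe, no folate enzyme probe) and spots of a probe averaged.

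Detection required a signal well above background on 1 array or more, as for 32775 probes. The dim side of a probe detected on 1 array was set to the lowest log2 signal well above background there (2.27 on HN, 2.82 on LN) or to its own value if higher, and no fold was given where the bright side did not exceed it. A gene was the mean of its detected probes with a fold. Accessions were matched to symbols through RefSeq (26742 probes, 12603 symbols), and no coordinates were taken from it.

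All 9 members were named with every probe, and from each surrounding list up to 4 genes past a log2 LN/HN of 0.32 in either direction whose detected probes were measured on both arrays. Members and lists were chosen with earlier results of these data known. Scripts were tested on simulated data. No test between the pools was made, since each has 1 array, and the number of arrays limits the precision. Promoter and protein sequences were not analysed here. Some list members are not reported here.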

Additional observations from a re-analysis of the deposited data

How the results depend on the processing

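The values were recomputed under 12 alternatives and under local background subtraction, which was added after seeing the data. Over all results and settings, 318 of 390 values stayed close to the reported one and 72 did not, 19 of the latter under normexp. Close meant a shift below 0.099, the median SD between probes of a gene, or a count or percentage within 1.5 times. Many settings cannot alter a gene with 1 clearly measured probe and so say nothing of its stability. The mitochondrial median of 0.59 was 0.49 with the 75th percentile subtracted, 0.17 with normexp and 0.49 with local background subtraction. Its difference from the cytosolic median (0.57) was 0.14 with normexp and 0.42 with local background subtraction. Under normexp 1 member (MTHFD2, 0.40) was higher past the threshold instead of 4, where 1.62% of all genes were higher and 1.98% lower. With no filter on dim probes, and with probes kept when positive and significant, 1 member was lower past the threshold. In these settings 13.4% and 16.0% of all genes were lower past it. The member was ALDH1L1 (-0.36 and -0.55), whose dim probes then entered. The latter 2 filters put ALDH1L2 at 0.79. With the 75th percentile, 6.00% of all genes were higher and 13.6% lower, and the median over all genes was -0.042. MTHFD1L was below 0 with the 75th percentile (-0.05), cyclic loess (-0.0043) and no normalization (-0.02). SHMT2 was past the threshold with the brightest probe (0.35) or the median over probes (0.33). The causes were not tested beyond what each setting does. No paired analysis was possible because each group has 1 array. MTHFD2, ALDH1L2 and ALDH1L1 each rest on 1 measured probe with a log2 signal under 5 in HN.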
